A study of Mus musculus with 14 samples.

Results

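The 7 genes described here encode regulators that hold the complement cascade in check, out of 42687 genes counted in RPE of Clic4 knockout mice and their controls. They were chosen by name and function and matched by symbol to the Ensembl gene IDs of the deposited counts: Serping1, Cfi, Clu and Vtn, whose proteins are secreted, and Cd46, Cd55 and Cd59a, whose proteins sit on the cell surface. RNA was sequenced from the RPE cells of 14 male C57BL/6J mice at 3 months of age, the RPE of both eyes of a mouse making 1 library. The KO mice were Best1-Cre+/-; Clic4f/f, in which the Best1 promoter drives Cre in the RPE only after birth, and they were compared within 3 sets that share no library. The WT set has 3 KO and 3 wild-type (WT) mice, which carry neither allele. Likewise, 2 Ctrl mice, with Clic4f/f and no Cre, are set beside 2 KO mice in the Ctrl set. In the CreCtrl set, 2 KO mice are compared with 2 CreCtrl mice, which have Best1-Cre+/- and unfloxed Clic4. The paper states how many KO mice were compared with each control genotype. Which KO mice go with which controls was inferred here, from KO and control samples that are named in the same form. The sources used here do not say which libraries were sequenced together. Each control genotype occurs in only 1 set, so effects of control genotype and of set cannot be told apart.

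Complement is a cascade of serum proteins in which C1, the lectins or spontaneous turnover of C3 lead to deposition of C3b, and then to the membrane attack complex (MAC) on cell surfaces. Its regulators act at each step: C1 inhibitor blocks the first proteases, factor I with its cofactors degrades C3b and C4b, decay-accelerating factor dismantles the C3 convertases, and clusterin, vitronectin and CD59 restrain the MAC. The RPE borders the fenestrated choroidal vessels, and complement proteins are among the constituents of drusen, the deposits under the RPE in age-related macular degeneration.

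The genes lie on 5 chromosomes of GRCm38. Serping1 (ENSMUSG00000023224) is on chromosome 2, 84765387 to 84775444, minus strand, and Cd59a (ENSMUSG00000032679) on the same chromosome, 104095801 to 104115354, plus strand. Cd55 (ENSMUSG00000026399) is on chromosome 1, 130439027 to 130462744, and Cd46 (ENSMUSG00000016493) on chromosome 1, 195036826 to 195092249, both on the minus strand. Cfi (ENSMUSG00000058952) is on chromosome 3, 129835884 to 129875332, Clu (ENSMUSG00000022037) on chromosome 14, 65968483 to 65981547, and Vtn (ENSMUSG00000017344) on chromosome 11, 78499091 to 78502324, all on the plus strand. All are protein-coding, and the counts cover their exons, UTRs included as far as the annotation used for counting held them.

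Both Cd55 and Cd59a have a neighbouring copy in the mouse, Cd55b and Cd59b, so the reads of the copies have to be told apart. The coding sequences of Cd59a and Cd59b are 85.2% identical over 357 aligned bases, with no identical run longer than 47 bases. The first 150 coding bases of both are shown because they open with that longest identical run, with capitals for bases that differ or have no counterpart in the other copy.
Cd59a: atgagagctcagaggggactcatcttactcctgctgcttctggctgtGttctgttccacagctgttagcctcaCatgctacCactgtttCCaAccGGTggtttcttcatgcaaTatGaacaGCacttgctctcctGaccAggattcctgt
Cd59b: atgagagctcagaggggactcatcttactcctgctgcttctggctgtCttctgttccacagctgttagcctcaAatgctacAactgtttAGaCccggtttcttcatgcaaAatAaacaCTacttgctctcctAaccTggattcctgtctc
Of the 1811 windows of 50 bases in Cd59a transcripts, 70 (3.87%) also occur in Cd59b on the same strand. Cd55 and Cd55b are 92.0% identical over 1149 aligned coding bases, with an identical run of 198 bases, and 384 of 4801 windows of Cd55 (8.0%) occur in Cd55b. The sequences before their start sites are less alike, 74.4% over 227 aligned bases. The 250 bases upstream of each start (RefSeq, GRCm38.p6) are shown because Cd55 was counted in these cells and Cd55b was not, with capitals for runs of at least 12 bases that both hold; they are Cd55 at chr1:130462745-130462994 and Cd55b at chr1:130423044-130423293, both read on the minus strand.
Cd55: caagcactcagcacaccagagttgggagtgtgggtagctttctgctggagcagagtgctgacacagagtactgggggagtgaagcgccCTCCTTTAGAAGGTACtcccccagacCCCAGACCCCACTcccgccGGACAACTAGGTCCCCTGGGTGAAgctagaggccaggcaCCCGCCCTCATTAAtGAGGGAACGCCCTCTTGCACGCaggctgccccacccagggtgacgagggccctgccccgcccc
Cd55b: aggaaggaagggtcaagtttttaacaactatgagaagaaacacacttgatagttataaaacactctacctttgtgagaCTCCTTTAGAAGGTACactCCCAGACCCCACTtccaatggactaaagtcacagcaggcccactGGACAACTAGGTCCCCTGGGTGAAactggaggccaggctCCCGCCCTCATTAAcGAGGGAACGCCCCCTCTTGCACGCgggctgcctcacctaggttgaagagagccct
The shared runs cover 35.6% of the Cd55 and 36.4% of the Cd55b window. Cd55b had 0 counts in all 14 libraries, and Cd59b had 6 to 63 counts per library, so reads of Cd59a and Cd59b that fall in shared windows remain uncertain. No window of Serping1, Cfi, Clu or Vtn occurs in another gene. Cd46 shares 1079 of its 7603 exonic bases (14.2%) with A330023F24Rik on the opposite strand, which had 6082 counts over the 14 libraries. The library kit marks the strand, but the strand setting of the counting is not given in the sources used here, so reads of Cd46 and of this transcript may not be told apart.

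The libraries held 9828293 to 12363580 counts in WT mice and 14116835 to 32384166 in the other groups. Levels are given as CPM, the counts relative to the library total, scaled with TMM factors within the set unless stated. Clic4, the targeted gene, was lower in every KO library than in the controls of its set, with a log2 fold change of -3.32 (WT set), -1.61 (Ctrl set) and -2.16 (CreCtrl set). In the Ctrl set this was not called (adjusted p = 0.333 from edgeR), and it ranged from -2.77 (without KO replicate 2) to -0.98 (without KO replicate 1). The libraries of the groups also differ in their markers. All 10 RPE markers, Rpe65 and Best1 among them, had counts in every library. Their summed level was 14633 to 22882 CPM in WT and 66283 to 72629 CPM in the KO of the WT set. It was 41135 to 53252 CPM in Ctrl and CreCtrl and 62720 to 72234 CPM in their KO. Gene by gene, edgeR called 8 of the 10 higher against WT, 0 against Ctrl, and 1 higher and 1 lower against CreCtrl. Below 0 in log2 fold change were 1, 2 and 2 of the 10 in the same order. Over all sets 8 were called higher and 1 lower. All 10 fibroblast markers, such as Col1a1 and Dcn, were also counted in every library, with a sum of 8110 to 8446 CPM in WT and 268 to 730 CPM in KO. The sums were 1193 to 2298 against 119 to 304 CPM in the Ctrl set and 1315 to 2717 against 247 to 332 CPM in the CreCtrl set. In such bulk samples, fewer cells of a type and less RNA per cell cannot be told apart.

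By the test across all genes, 4 of the 6 regulators tested were called in KO vs. WT, Clu and Vtn higher and Serping1 and Cd55 lower, where 35.1% of all genes were called (16.1% higher and 19.0% lower). In KO vs. Ctrl edgeR called none of the 7 regulators, and it called 0.0% of all genes in that set. In KO vs. CreCtrl it called Serping1 and Cd55 lower and Cd59a higher, 3 of 7, where 15.8% of all genes were called (3.6% higher and 12.2% lower). A gene was called at an adjusted p under 0.05 (edgeR, quasi-likelihood F test, Benjamini-Hochberg over all genes tested). The 0 in KO vs. Ctrl depends on the tool: 2 regulators, Cd55 and Serping1, had an unadjusted p under 0.05 there, as did 12.1% of all genes, and DESeq2 called both, where it called 7.27% of all genes. With the 7 KO and 7 control libraries in 1 fit adjusted for set, Serping1 and Cd55 (lower) and Clu and Cd59a (higher) were called, where 38.7% of all genes were (20.1% higher and 18.6% lower). Separation of the groups was common: every KO library lay above every control for 23.7% (WT set), 18.2% (Ctrl set) and 34.8% (CreCtrl set) of genes, and below for 28.4%, 22.8% and 36.9%.

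**Figure D1:**
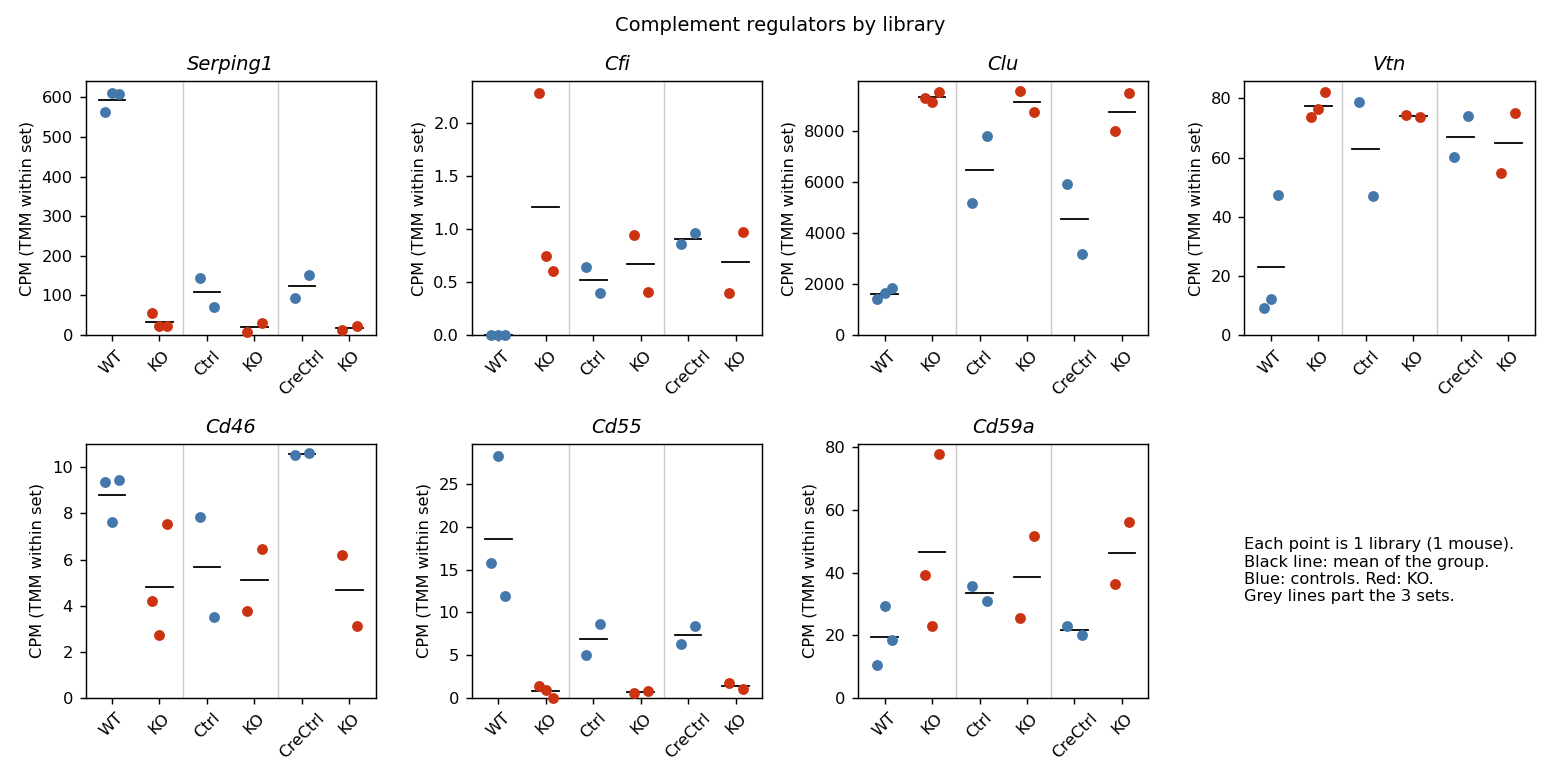
CPM of each regulator (y axis, scaled within the set, each panel with its own range) in every library, by group (x axis), with blue points for control and red for KO libraries and a black line at the group mean. Serping1 and Cd55 lie lower and Clu higher in every KO library than in the controls of its set, and Cfi is at 0 in the 3 WT libraries.

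Serping1, the gene of C1 inhibitor, which inactivates the proteases C1r and C1s, was lower in every KO library than in any control of its set. WT libraries had 564, 611 and 608 CPM and the KO libraries of their set 55.4, 24.1 and 22.4 CPM. The Ctrl libraries had 144 and 71.3 CPM and their KO 8.52 and 31.5 CPM. The CreCtrl libraries had 94.3 and 153 CPM and their KO 12.9 and 23.5 CPM. The KO libraries of the 3 sets overlapped, whereas the WT controls lay far above the other controls. The log2 fold change was -4.13 (SE 0.35, adjusted p = 7.65e-05 from edgeR) against WT and -2.76 (SE 0.34, adjusted p = 0.00615 from edgeR) against CreCtrl. Against Ctrl it was -2.42 (SE 0.68, adjusted p = 0.203 from edgeR), a difference that DESeq2 called (adjusted p = 0.00416). That value was -1.82 without Ctrl replicate 1, -1.78 without KO replicate 1 and -3.65 without KO replicate 2. The difference between the KO effects in the WT and Ctrl sets, -1.57 (SE 0.72), did not pass the test (adjusted p = 0.229 from edgeR).

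The summed levels of the fibroblast markers and of those of other stromal cells were lower in the same KO libraries as Serping1. The fibroblast markers were lower in KO for 10 of 10 genes by edgeR's test in the WT set and for 9 of 10 in the CreCtrl set. In the Ctrl set edgeR called 0 of 10, with 9 at an unadjusted p under 0.05. Expressed as a percentage of the summed fibroblast CPM of the same library, Serping1 was 6.95, 7.50 and 7.20% in WT and 7.58, 8.23 and 8.36% in their KO. This percentage was 6.26 and 5.98% in Ctrl, 7.15 and 10.4% in their KO, 7.17 and 5.62% in CreCtrl and 5.21 and 7.09% in their KO. The KO and control libraries overlapped on this measure in 1 of the 3 sets, with KO above the controls in the other two. Over the 14 libraries the percentage ranged from 5.21 to 10.4%, whereas Serping1 itself ranged from 8.87 to 565 CPM (scaled over the 14 libraries). This ratio was chosen after the values were seen. The sum of 7 pericyte and smooth muscle markers was 2502 to 2608 CPM in WT and 379 to 476 CPM in their KO, 530 to 812 against 295 to 380 CPM in the Ctrl set and 530 to 776 against 319 to 389 CPM in the CreCtrl set. Of them, edgeR called 4 of 7 lower against WT, 0 against Ctrl (4 at an unadjusted p under 0.05) and 4 lower against CreCtrl. Higher in KO without a call were 2 of the 7 against WT, 1 against Ctrl and 2 against CreCtrl. Over all sets, edgeR called 5 lower and 1 higher. The summed endothelial markers were also lower in every KO library, with values given beside Thbd. The part of each cell type in the level of Serping1 was not tested.

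Clu, encoding clusterin, an extracellular chaperone that also binds the forming MAC, was the most abundant regulator and went in the opposite direction. It had 1391, 1632 and 1822 CPM in WT and 9285, 9125 and 9522 CPM in the KO of their set. Ctrl libraries had 5161 and 7769 CPM and their KO 9529 and 8710 CPM. CreCtrl libraries had 5925 and 3173 CPM and their KO 7964 and 9477 CPM. Every KO library lay above every control library of its set, as for 7.44% of genes in all 3 sets, although the gap was narrow in the Ctrl set. The log2 fold change was 2.53 (SE 0.15, adjusted p = 2.36e-05 from edgeR) against WT, 0.50 (SE 0.36, adjusted p = 0.760 from edgeR) against Ctrl and 0.94 (SE 0.33, adjusted p = 0.0847 from edgeR) against CreCtrl. In KO vs. CreCtrl, DESeq2 called it (adjusted p = 0.00535), and so did edgeR without CreCtrl replicate 1 (log2 fold change 1.45). Without CreCtrl replicate 2 it was 0.52 (adjusted p = 0.107 from edgeR).

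Clu was also the regulator whose KO effect differed between sets. The effect was larger in the WT than in the Ctrl set by 2.17 on the log2 scale (SE 0.38, adjusted p = 0.0117 from edgeR), where 5.15% of all genes passed this test. It was larger in the WT than in the CreCtrl set by 1.70 (SE 0.38, adjusted p = 0.0479 from edgeR, and 0.0520 with RLE normalization), where 1.49% of genes passed. In CPM scaled over the 14 libraries, the 7 KO libraries ranged from 8270 to 9920, a 1.2-fold range, and the 7 controls from 1294 to 8116, a 6.27-fold range. The KO libraries of all sets thus had about the same level, and the WT controls had the lowest. As a percentage of the summed RPE markers, Clu was 7.96 to 9.51% in WT and 12.6 to 14.1% in their KO, while the KO and Ctrl libraries (12.5 and 18.9%) of the Ctrl set overlapped. On this measure the KO libraries of the CreCtrl set, at 12.6 and 13.1%, lay above the controls at 11.1 and 6.79%. The part of the RPE marker level in the difference between sets was not tested.

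Vtn encodes vitronectin, which binds C5b-7 and keeps it from inserting into membranes and is a known constituent of drusen. Its WT libraries had 9.09, 12.2 and 47.3 CPM and the KO of their set 73.8, 76.5 and 82.2 CPM. Ctrl libraries had 78.6 and 47.2 CPM, with 74.5 and 73.6 CPM in their KO, and CreCtrl libraries had 60.3 and 73.9 CPM, with 54.8 and 75.0 CPM in their KO. Only in the WT set were the groups apart. As a percentage of the summed RPE markers, which were also lower in WT, Vtn was 0.0621, 0.0693 and 0.207% in WT and 0.105 to 0.122% in their KO, so the groups overlapped on this measure. The log2 fold change was 1.75 (SE 0.54, adjusted p = 0.0341 from edgeR) against WT, 0.24 (SE 0.30, adjusted p = 0.897 from edgeR) against Ctrl and -0.05 (SE 0.20, adjusted p = 0.879 from edgeR) against CreCtrl. The effects in the WT and Ctrl sets differed by 1.66 (SE 0.70), which did not pass the test (adjusted p = 0.189 from edgeR).

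The call of Vtn in KO vs. WT rested on few libraries. Its adjusted p from edgeR was 0.0535 to 0.107 without WT replicate 1, without WT replicate 2 or without any of the KO replicates of that set, and 0.0550 with scaling by library size alone. Without WT replicate 3 the log2 fold change was 2.87. That library also had the highest summed level of 8 photoreceptor markers among the WT libraries, 1436 CPM against 31.7 and 357 CPM. In the KO libraries of the set the photoreceptor sum was 894, 104 and 1659 CPM while Vtn stayed between 73.8 and 82.2 CPM. In KO vs. WT, edgeR called 0 of the 8 photoreceptor markers, with 0 at an unadjusted p under 0.05, and the same held against Ctrl. Against CreCtrl, where Vtn had a log2 fold change of -0.05, edgeR called 7 of the 8 lower. The photoreceptor sum was 898 and 4334 CPM in CreCtrl and 326 and 216 CPM in their KO. The part of photoreceptor RNA in the level of Vtn was not tested.

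Cfi encodes factor I, the plasma protease that cleaves C3b and C4b, and is made mainly in the liver. It was close to the limit of detection. The WT libraries had 0, 0 and 0 counts and the KO libraries of their set 34, 11 and 9. Ctrl libraries had 10 and 11 counts and their KO 15 and 7, and CreCtrl libraries had 20 and 15 counts and their KO 10 and 28. All libraries other than the 3 WT thus held some Cfi reads. At this depth 0 counts are compatible with up to 3, or 0.243 to 0.305 CPM in a WT library by library total, without TMM factors. Against this floor per library the mean of the KO libraries, on the same scale, was at least 3.99-fold higher, or 2.20-fold without KO replicate 1. The limit covers only the counting error of the 0 counts in WT, and the KO counts enter as observed. Cfi did not pass the filter on low counts in KO vs. WT, although edgeR called it there with all 14 libraries in 1 fit of 6 groups. Its log2 fold change was 0.39 (SE 0.92, adjusted p = 0.957 from edgeR) against Ctrl and -0.39 (SE 0.66, adjusted p = 0.693 from edgeR) against CreCtrl.

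Of the surface regulators, Cd55 changed most. It encodes decay-accelerating factor, which speeds the decay of the C3 and C5 convertases. WT libraries had 15.7, 28.3 and 11.9 CPM and the KO of their set 1.41, 0.947 and 0 CPM. Ctrl libraries had 5.04 and 8.61 CPM and their KO 0.501 and 0.805 CPM, and CreCtrl libraries had 6.24 and 8.39 CPM and their KO 1.71 and 1.04 CPM. No KO library of any set reached the lowest control. Cd55 and Serping1 were the 2 regulators below the controls in all 3 sets, as were 10.9% of all genes. The log2 fold change of Cd55 was -4.55 (SE 0.94, adjusted p = 0.00591 from edgeR) against WT, -3.37 (SE 0.63, adjusted p = 0.116 from edgeR) against Ctrl and -2.41 (SE 0.41, adjusted p = 0.0136 from edgeR) against CreCtrl. DESeq2 called it against Ctrl (adjusted p = 0.0004), and in KO vs. CreCtrl edgeR no longer did with all 14 libraries in 1 fit of 6 groups (adjusted p = 0.142). The KO libraries held 0 to 43 counts of Cd55, so their levels rest on few reads. As a percentage of the summed fibroblast markers, Cd55 was 0.140 to 0.722% in the 7 controls and 0 to 0.693% in the 7 KO libraries, with medians of 0.309 and 0.313%.

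Cd59a encodes the mouse CD59 of most tissues, a lipid-anchored protein that stops C9 from completing the MAC. WT libraries had 10.6, 29.2 and 18.4 CPM and the KO of their set 39.1, 23.1 and 77.8 CPM. The Ctrl libraries had 35.8 and 30.9 CPM and their KO 25.4 and 51.6 CPM. The CreCtrl libraries had 22.9 and 20.2 CPM and their KO 36.4 and 56.3 CPM. The groups overlapped in the WT and Ctrl sets and were apart in the CreCtrl set, and the KO libraries varied more than the controls in each set. As a percentage of the summed RPE markers, Cd59a had a median of 0.0590% in the 7 KO and 0.0750% in the 7 control libraries, with ranges that overlapped (0.0318 to 0.115% and 0.0429 to 0.166%). Its log2 fold change was 1.27 (SE 0.48, adjusted p = 0.0747 from edgeR) against WT, 0.21 (SE 0.38, adjusted p = 0.938 from edgeR) against Ctrl and 1.11 (SE 0.23, adjusted p = 0.0255 from edgeR) against CreCtrl. The call in KO vs. CreCtrl was lost without CreCtrl replicate 2 (adjusted p = 0.0603 from edgeR) and without KO replicate 2 (0.118), and with all 14 libraries in 1 fit of 6 groups (0.209). DESeq2 called Cd59a in KO vs. WT (adjusted p = 0.0216). With 7 KO and 7 control libraries, edgeR gave 0.97 (SE 0.30, adjusted p = 0.0213), a call that was lost with scaling by library size alone (0.71, adjusted p = 0.0738) and with a replicate block (adjusted p = 0.0607).

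Cd46 encodes membrane cofactor protein, a cofactor for factor I best known in mice from the testis. It was low in every library. WT libraries had 9.36, 7.63 and 9.44 CPM and the KO of their set 4.22, 2.71 and 7.56 CPM. Ctrl libraries had 7.84 and 3.52 CPM and their KO 3.76 and 6.44 CPM, and CreCtrl libraries had 10.5 and 10.6 CPM and their KO 6.21 and 3.12 CPM. The KO libraries lay below the controls in the WT and CreCtrl sets and overlapped them in the Ctrl set. Its log2 fold change was -0.87 (SE 0.49, adjusted p = 0.210 from edgeR) against WT, -0.15 (SE 0.59, adjusted p = 0.974 from edgeR) against Ctrl and -1.18 (SE 0.37, adjusted p = 0.0642 from edgeR) against CreCtrl, so no set passed with this test. DESeq2 called it in KO vs. CreCtrl (adjusted p = 0.0320).

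**Figure D2:**
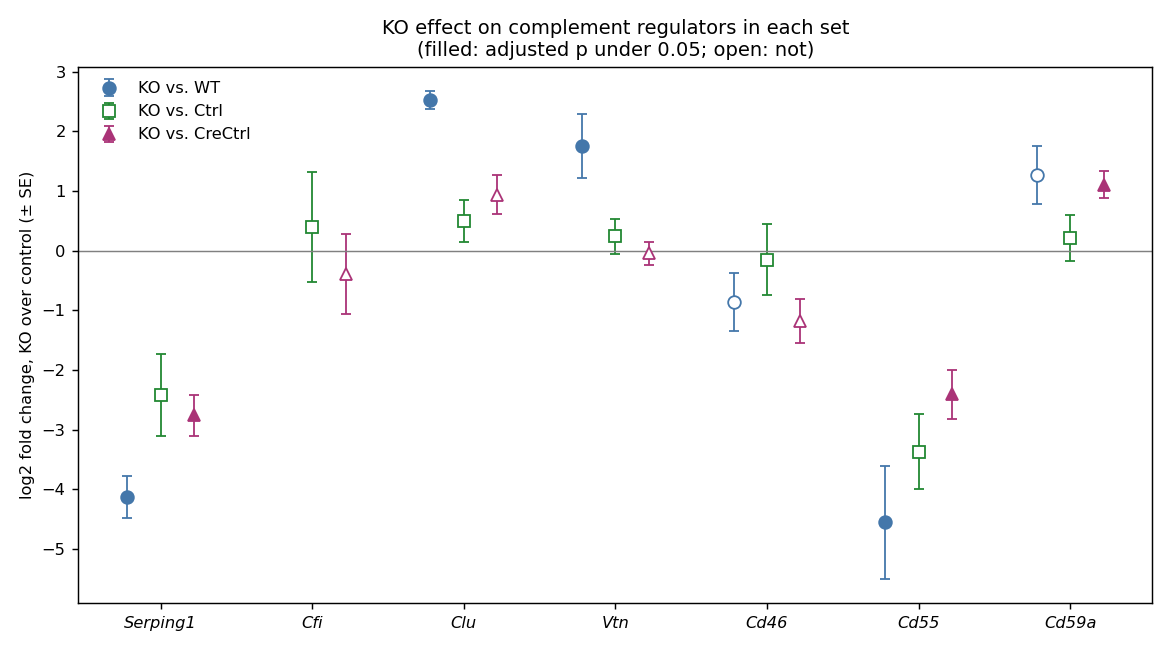
Log2 fold change of KO over control (y axis, with SE as error bars) of each regulator (x axis) against WT (circles), KO vs. Ctrl (squares) and KO vs. CreCtrl (triangles), filled where the adjusted p from edgeR was under 0.05. Serping1 and Cd55 lie below 0 in all 3 comparisons, Clu above 0, and Cfi was not tested in KO vs. WT.

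Levels of different genes can be compared per kilobase of exon (RPKM, scaled over the 14 libraries). In WT the order was Clu at 432 ± 52.8 RPKM (SD, n = 3), Serping1 at 235 ± 8.95, Vtn at 10.3 ± 9.45, Cd59a at 9.87 ± 4.78, Cd55 at 3.54 ± 1.65, Cd46 at 1.07 ± 0.12 and Cfi at 0. Vtn and Cd59a were neighbours that did not differ beyond their spread. In the KO of that set the order was Clu at 2752 ± 14.9 RPKM (SD, n = 3), Vtn at 38.8 ± 1.77, Cd59a at 26.0 ± 15.3, Serping1 at 14.8 ± 8.12, Cd46 at 0.642 ± 0.320, Cfi at 0.553 ± 0.425 and Cd55 at 0.165 ± 0.151. Cd59a overlapped both Vtn and Serping1 in these libraries, and Cfi overlapped both Cd46 and Cd55. Clu made up 62.4% of the summed RPKM of the 7 genes in WT and 92.9 to 97.5% in the other 5 groups. Serping1 made up 34.0% in WT, 2.33 and 3.72% in Ctrl and CreCtrl, and 0.299 to 0.524% in the KO groups. The make-up of WT thus stood apart from that of the other groups.

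**Figure D3:**
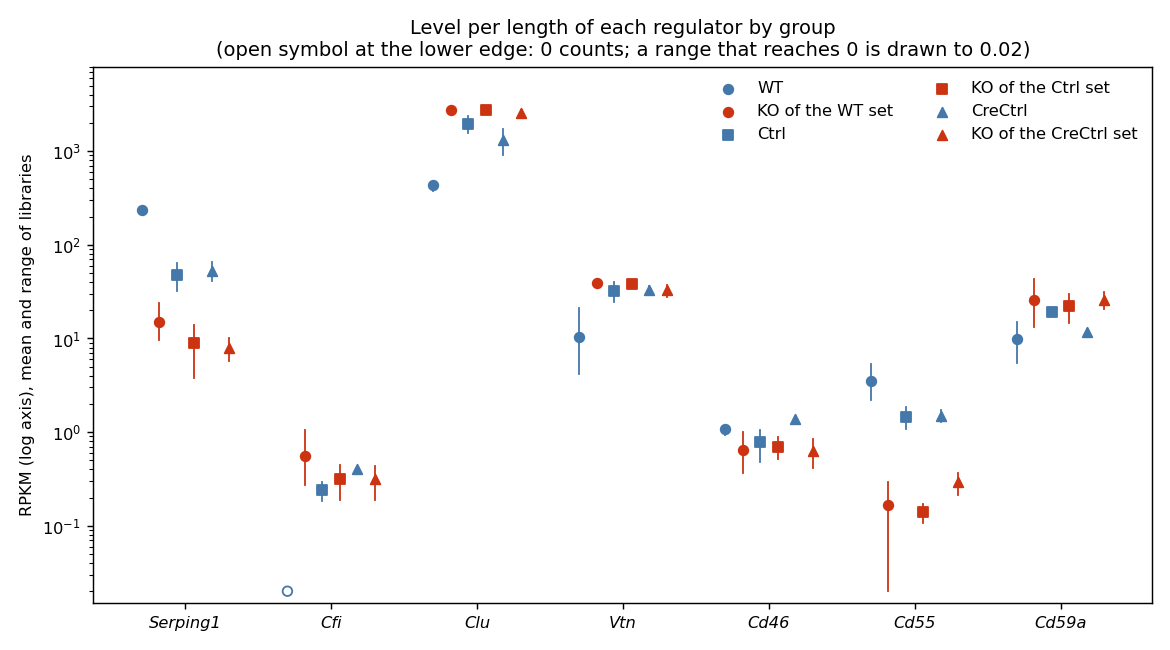
RPKM (y axis, log scale, scaled over the 14 libraries) of each regulator (x axis), as group mean with a line from the lowest to the highest library, blue for control and red for KO groups. Clu is the highest in every group, the open circle marks the WT group of Cfi at 0 counts, and the Cd55 range in the KO of the WT set reaches 0.

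The genes whose pattern over the 14 libraries was closest to each regulator were found by the root mean square difference of centred log2 CPM. For Serping1 these were Lsp1 (0.26), Ece1 (0.28) and Rcn3 (0.28), and for Clu they were Mansc1 (0.15), Elovl7 (0.16) and Bpnt1 (0.17). Those of Vtn were Fahd1 (0.20), Slc1a2 (0.29) and Rom1 (0.30), of Cd59a Fbxo16, Gm13031 and Mipep (each 0.35), and of Cd46 AI480526 (0.24), 1700029J07Rik (0.25) and Ccdc62 (0.27). For Cd55 they were Gpr153, Gxylt2 and Lxn, at 0.61 to 0.63, and for Cfi Gm10097, Adra1b and Gabra5, at 0.52 to 0.56. The regulators differ in their own root mean square deviation, so these distances do not rank them by closeness. It was 2.08 for Cd55, 1.93 for Serping1, 1.33 for Cfi, 1.06 for Clu, 1.01 for Vtn, 0.74 for Cd59a and 0.61 for Cd46.

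The rest of the pathway was described from lists chosen by function. Of 15 other complement regulators, 8 were tested in KO vs. WT, and edgeR called 3 lower and 1 higher. Thbd (thrombomodulin, which promotes inactivation of C3a and C5a) fell in KO vs. WT, from 231 ± 41.0 to 18.8 ± 8.24 CPM (SD, n = 3). Its log2 fold change was -3.61 (SE 0.32, adjusted p = 8.43e-05 from edgeR), and -3.21 (SE 0.30, adjusted p = 0.00367 from edgeR) against CreCtrl. Against Ctrl it was -3.15 (SE 0.42, adjusted p = 0.106 from edgeR). Endothelial cells are a known source of thrombomodulin, and 8 endothelial markers had a summed level of 287 to 551 CPM in WT and 68.5 to 146 CPM in their KO, 97.7 to 128 against 33.5 to 53.9 CPM in the Ctrl set and 171 to 289 against 46.6 to 53.8 CPM in the CreCtrl set. Of the 8, edgeR called 7 lower against WT, 0 against Ctrl (6 at an unadjusted p under 0.05) and 6 lower against CreCtrl. Their part in the level of Thbd was not tested. Cr1l, the gene of Crry, the widely expressed membrane regulator of rodents, fell from 58.3 ± 8.50 to 17.1 ± 2.97 CPM (SD, n = 3) against WT (adjusted p = 0.000268 from edgeR). Its log2 fold change was -0.54 against Ctrl and -0.28 against CreCtrl, neither called. Cfp, encoding properdin, the stabilizer of the alternative convertase and so a positive regulator, fell by 1.38 on the log2 scale in KO vs. WT and by 1.2 in KO vs. CreCtrl, and had 0.56 in KO vs. Ctrl, where it was not called. The call of Cfp against CreCtrl was lost without CreCtrl replicate 2 (adjusted p = 0.149 from edgeR), without KO replicate 2 (0.193) and as 6 groups (0.123). C1qbp, a mitochondrial protein that can bind C1q, rose by 0.85 in KO vs. WT, and had log2 fold changes of 0.24 against Ctrl and 0.30 against CreCtrl, neither called. Its effect in the WT set differed from these by 0.75 and 0.65, which did not pass the test (adjusted p = 0.121 and 0.262 from edgeR). Cd59b, at 0.383 to 3.95 CPM in all libraries, was called in no set, with log2 fold changes of -0.57 (WT set), 0.22 (Ctrl set) and -0.09 (CreCtrl set).

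Complement components and receptors were lower in KO where they were called. Of 26 components, 12 were tested in KO vs. WT, where 11 were lower in KO and edgeR called 9 of these. The median log2 fold change was -3.55 over those tested, against -0.08 over all genes. Those called were the C1 proteins C1qa (-3.69), C1qb (-3.56), C1qc (-3.69), C1ra (-2.96) and C1s1 (-3.54), the central proteins C3 (-4.03) and C4b (-2.30), C7 (-4.29) of the MAC and the ficolin Fcna (-5.04). In the KO of the WT set, replicate 1 alone had counts of C7 and Fcna, so these values rest on few reads. The call of C7 was lost with DESeq2 (adjusted p = 0.106) and without any single library other than KO replicate 1 (0.0620 to 0.122 from edgeR). That of Fcna was lost with a replicate block (0.0780) and without WT replicate 2 or 3 or KO replicate 2 or 3 (0.0629 to 0.101). In KO vs. CreCtrl all 13 tested were lower and edgeR called 7, the 9 named other than C7 (-2.51) and Fcna (-2.57). The calls of C1qa, C1qb, C1qc and C3 against CreCtrl were lost as 6 groups (adjusted p = 0.0858 to 0.116 from edgeR). In KO vs. Ctrl edgeR called 0 of 10 (3 at an unadjusted p under 0.05), with C4b at -2.46, C3 at -2.14 and C1s1 at -1.72. C1s1, the protease that C1 inhibitor blocks, fell from 297 ± 27.5 to 25.5 ± 10.8 CPM (SD, n = 3) against WT.

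The receptors C3ar1, C5ar1, Itgam, Itgax and Itgb2, which are carried by myeloid cells, were called lower in KO vs. WT and KO vs. CreCtrl. These 5 of the 6 tested fell by 3.00 to 5.19 on the log2 scale, and all 6 were below 0 in both comparisons. The call of Itgam was lost without any WT replicate or KO replicate 2 in the WT set, and without CreCtrl replicate 2 or KO replicate 2 in the CreCtrl set, where that of C5ar1 was also lost without CreCtrl replicate 2. All 5 calls against CreCtrl were lost as 6 groups (adjusted p = 0.0541 to 0.164 from edgeR). In KO vs. Ctrl none of the 6 was called by edgeR (1 at an unadjusted p under 0.05), and the 5 had values of -0.44 to 0.45. The 10 myeloid markers had a summed level of 1544 to 2700 CPM in WT against 810 to 939 CPM in KO, and 896 to 1185 against 744 to 765 CPM in the CreCtrl set. In the Ctrl set it was 874 and 1291 CPM in Ctrl and 821 and 2396 CPM in KO. Of the 10 myeloid markers, edgeR called 9 lower and 1 higher against WT, 8 lower against CreCtrl and 0 against Ctrl. Their median log2 fold change was -3.91, -2.87 and 0.26 in the same order, beside -3.54, -3.26 and -0.26 for the 6 receptors. None of the 10 was at 0 in a whole group, and KO replicate 2 of the Ctrl set had the highest myeloid level of the KO libraries. Without that library, the log2 fold change of C1qa in KO vs. Ctrl was -2.28 in place of 0.25. The part of myeloid cells in these values was not tested.

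**Figure D4:**
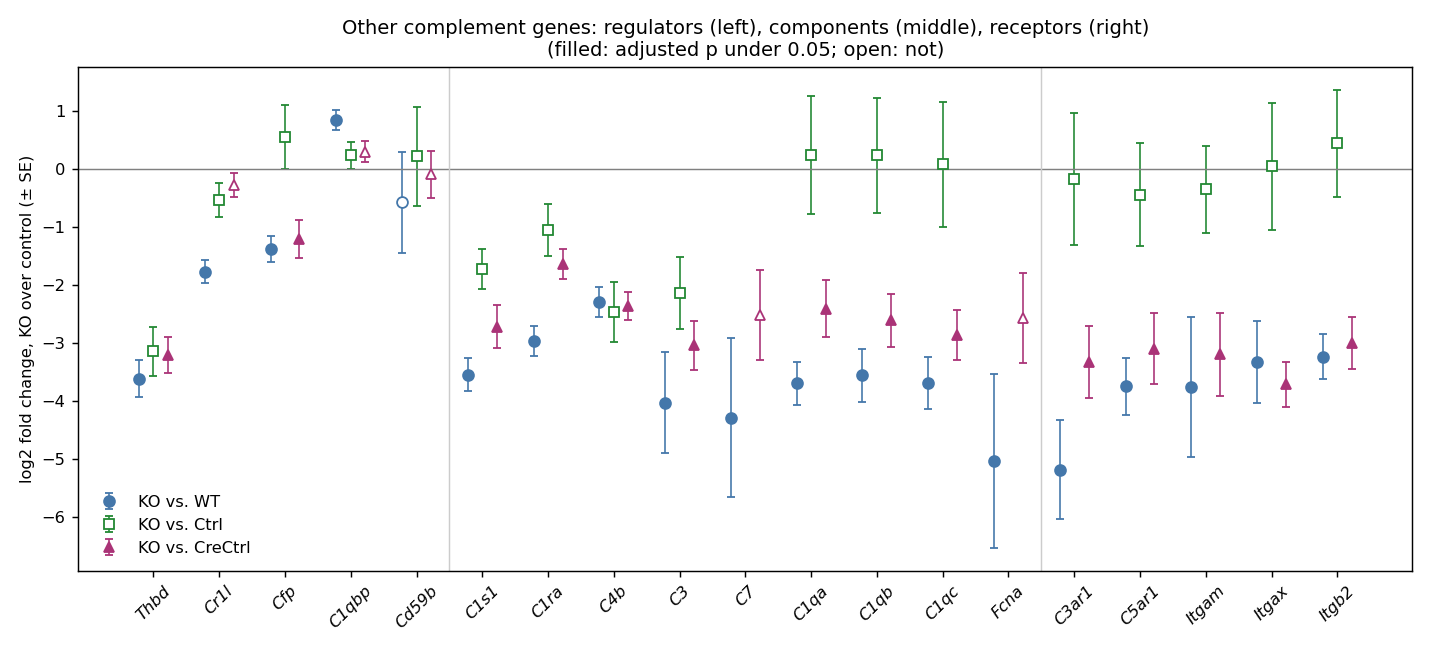
Log2 fold change of KO over control (y axis, with SE as error bars) of other complement genes (x axis), grouped as regulators, components and receptors from left to right and drawn for KO vs. WT (circles), KO vs. Ctrl (squares) and KO vs. CreCtrl (triangles), filled where called by edgeR. Thbd, C1s1, C1ra, C4b and C3 lie below 0 in all 3 comparisons, whereas the C1q genes and the receptors lie near 0 in KO vs. Ctrl.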

How the data were processed

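RNA was measured in 14 libraries, each of the RPE cells of both eyes of 1 mouse. Per the labels and the study's methods, the authors made stranded poly(A) libraries, sequenced paired-end reads and aligned them to GRCm38 with STAR 2.5.2, and deposited counts per Ensembl gene without normalization. HTSeq 0.11.2, Cufflinks 2.1.1 and bcl2fastq 2.19 are listed in the submitters' processing notes with no role. The counting settings and the annotation release are not given in the sources used here. Names and positions came from GENCODE M21, which held 42250 of the 42687 genes.

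KO libraries were compared with the controls of their set with edgeR 4.0.16 (TMM, filterByExpr, quasi-likelihood test, Benjamini-Hochberg over all genes, adjusted p under 0.05). Further fits took all 14 libraries with set as covariate, or as 6 groups to test differences between sets. DESeq2 1.42.0, other normalizations and filters, a replicate block and leaving out each library were run as alternatives. R was 4.3.3 and Python 3.11.15. The main fits with edgeR and DESeq2, within each set and over all sets, were first run on simulated data. So was edgeR's test of the difference between the WT and Ctrl sets. The other fits were not. Each library is 1 mouse. Totals of 9828293 to 32384166 counts limit the low genes most: 3 counts are 0.0926 to 0.305 CPM by library total. Log2 fold changes are edgeR's, with its default prior count, and centred log2 CPM use a prior count of 2. The SE of a log2 fold change was derived from the test. It is the absolute log2 fold change divided by the square root of edgeR's F statistic.

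The 7 genes and all lists were chosen with earlier results of these data known. Genes named are the 7, Clic4, Cr1l, Cd55b, Cd59b, each other complement gene called in at least 1 of the 3 comparisons, and the 3 genes closest in pattern to each of the 7. Upstream sequence was found in the RefSeq table for 4 of the 7 genes (not for Serping1, Cfi and Clu), and windows of 50 bases came from GENCODE transcripts.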

Additional observations from a re-analysis of the deposited data

Results flagged for a closer look

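Among the 7 KO libraries, some values stood apart from the other 6, by Dixon's test at 95% on log2 CPM with a prior count of 2, which marks about 1 in 20 groups by chance. The values are given here as CPM scaled over the 14 libraries, on which the gaps differ and that of Cd55 is small. Cd55 was 0 in KO replicate 3 of the WT set, against 0.522 to 1.78 in the others. Vtn was 56.9 in KO replicate 1 of the CreCtrl set, against 75.0 to 82.2. C7 was 1.77 in KO replicate 1 of the WT set, against 0 to 0.209. Itgax was 31.1 and Itgb2 55.6 in KO replicate 2 of the Ctrl set, the KO library with the highest myeloid marker level, against 0.669 to 3.13 and 2.31 to 6.08. In the same library C1qa, C1qb, C1qc, C3ar1, C5ar1 and Itgam were also above the other 6, but not far enough on the log2 scale.

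The KO effect on Clu was larger in the WT set than in the Ctrl set by 2.17 and than in the CreCtrl set by 1.70 on the log2 scale (adjusted p = 0.0117 and 0.0479 from edgeR's test of the difference). The KO effect on C1ra, a protease of C1, was more negative in the WT than in the Ctrl set, by -1.78 (SE 0.46, adjusted p = 0.0449 from the same test).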

How the results depend on the processing

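In KO vs. Ctrl, the 0 regulators and 0 other complement genes called became 2 and 5 with no filter on low counts, 2 and 5 with DESeq2, and 1 and 3 with all 14 libraries as 6 groups, while the share of all genes called went from 0.0% to 6.92, 7.27 and 3.67%. Against CreCtrl the 3 regulators became 5 with no filter or with DESeq2, and the 3 and 14 became 1 and 4 as 6 groups, while that share went from 15.8% to 19.5, 25.7 and 3.99%. Regulators whose KO effect differed between sets numbered 1, or 4 with no filter and 2 (Cfi and Clu) with DESeq2. The cause was not tested. Leaving out 1 library gave 3 to 4 regulators called against WT, 0 against Ctrl, 2 to 4 against CreCtrl and 4 to 5 over all sets, and 15 to 18, 0 to 1 and 11 to 17 other complement genes in the 3 sets. The share of all genes then ran from 27.7 to 30.0% against WT, 0.0 to 3.17% (without Ctrl replicate 1) against Ctrl, 6.9% (without CreCtrl replicate 2) to 31.0% (without CreCtrl replicate 1) against CreCtrl and 33.5 to 41.5% over all sets, so the counts are to be read beside it. With the filter of 10 counts in every library, Cd55 could not be tested against WT, against Ctrl or over all sets.

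Directions turned only for genes that were not called, mostly without 1 library. Against Ctrl these log2 fold changes then ranged from -0.34 to 0.88 for Cfi, -0.62 to 0.54 for Cd46, -0.39 to 0.63 for Cd59a, -0.085 to 0.66 for Vtn, -0.17 to 0.84 for Cd59b, -2.28 to 1.11 for C1qa, -2.22 to 1.10 for C1qb, -2.60 to 1.01 for C1qc, -3.40 to 0.74 for C3ar1, -2.16 to 0.31 for C5ar1, -1.68 to 0.33 for Itgam, -2.90 to 0.95 for Itgax and -1.90 to 1.29 for Itgb2. Against CreCtrl they ranged from -1.17 to 0.12 for Cfi, -0.28 to 0.18 for Vtn and -0.19 to 0.039 for Cd59b, and over all sets Cd59b ranged from -0.49 to 0.0056. With scaling by library size alone C1qc was -0.071 and Itgax -0.096 against Ctrl.

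Replicate numbers did not pair the libraries: same-numbered deviations correlated at -0.02, 0.04 and 0.13 (WT set), 0.0007 (Ctrl set) and 0.13 (CreCtrl set). With the replicate number as a block, 4, 0 and 4 regulators were called in the 3 sets and 3 over all sets (31.5, 0.739, 24.0 and 32.9% of all genes), where Cd59a was lost and Cd46 was gained against CreCtrl. The block turned C1qa to -0.42, C1qb to -0.40, C1qc to -0.60, Itgax to -0.77 and Itgb2 to -0.22 against Ctrl, none called.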
